A study of Mus musculus with 6 samples.

Results

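The MHC class II genes described here are 10 mouse genes, namely the transactivator Ciita, the invariant chain Cd74, the classical chains H2-Aa, H2-Ab1 and H2-Eb1, the DM chains H2-DMa, H2-DMb1 and H2-DMb2, and the DO chains H2-Oa and H2-Ob. They were chosen by symbol out of 22098 genes measured by RNA sequencing of sorted proB cells. Each has 1 listed transcript, and all 10 reached a mean of at least 1 RPKM (reads scaled by transcript length and library size), as 10943 genes did. The libraries come from 3 genotypes of C57BL/6 mice aged 6 to 7 weeks, which are Ikaros-ZnF4-/- mice (ZnF4), Ikaros-ZnF1-/- mice (ZnF1) and wild-type mice (wt). The ZnF4 and ZnF1 mice each lack a single zinc finger of the DNA-binding domain of Ikaros, the lymphoid transcription factor encoded by Ikzf1. Bone marrow was sorted into Hardy fractions C and C' together, called fraction C, and the earlier fraction B. Each genotype and fraction is represented by 1 library, so the pairwise differences are without replicates. The number of animals behind a library is not given in the sources used here.

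MHC class II molecules present peptides from endosomes to CD4 T cells. Their alpha and beta chains assemble with the invariant chain, which fills the peptide groove and leads the complex to endosomes. There proteases cut the invariant chain, and the DM heterodimer exchanges its last fragment for antigenic peptides, a step that the DO heterodimer restrains. CIITA, the product of Ciita, does not bind DNA itself but is recruited by factors sitting on the X and Y boxes of class II promoters, and it sets the transcription of the whole group. B cells express class II constitutively, and in mice the amount on the surface grows as B-lineage cells mature. C57BL/6 mice carry the b haplotype, in which H2-Ea is silent, so that their H2-Eb1 chain has no partner and H2-Aa with H2-Ab1 makes up the surface molecule.

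The available promoter sequences were searched for letters of the X and Y boxes, and only some of the genes held the X box pattern. The RefSeq promoter table (build GRCm38.p6, 250 bases before to 50 bases after each start) matched 7 of the 10 genes with 8 entries, and Ciita, Cd74 and H2-Ab1 had no entry. The Y box core ATTGG, searched on both strands, was found in 7 of the 8 entries, for 7 of the 7 genes, and in 37.4% of all 32851 promoters. The entry without it was that at the listed start of H2-DMa, whose other entry, 2686 bases away, held it. The X box pattern, AG, 2 of any base, AC, 3 of any base and TG, also on both strands, was found for 4 of the 7 genes and in 14.8% of all promoters. The X box pattern with ATTGG 10 to 30 bases downstream on the same strand was found for 3 of the 7 genes, H2-Eb1, H2-Ob and H2-DMb1, and in 0.286% of all promoters. The stretches around the ATTGG nearest to the start are printed 5′ to 3′ on the strand of the gene, with both motifs in capitals, for those 3 genes and for 3 genes whose windows hold ATTGG without the X box pattern.
H2-Eb1: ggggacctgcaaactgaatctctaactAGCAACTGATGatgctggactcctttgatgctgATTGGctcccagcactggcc
H2-Ob: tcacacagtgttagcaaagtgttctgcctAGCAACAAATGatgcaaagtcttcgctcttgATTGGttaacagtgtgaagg
H2-DMb1: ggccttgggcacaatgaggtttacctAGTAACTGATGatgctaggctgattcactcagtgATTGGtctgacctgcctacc
H2-DMb2: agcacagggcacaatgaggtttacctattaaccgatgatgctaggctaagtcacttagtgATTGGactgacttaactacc
H2-Aa: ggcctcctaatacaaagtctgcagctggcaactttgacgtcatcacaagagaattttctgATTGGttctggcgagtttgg
H2-Oa: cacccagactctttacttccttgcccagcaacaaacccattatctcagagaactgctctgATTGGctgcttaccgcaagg
The windows lie on the plus strand at chr17:34305748-34305827 for H2-Eb1, chr17:34238788-34238867 for H2-Ob, chr17:34153070-34153149 for H2-DMb1, chr17:34145099-34145178 for H2-DMb2 and chr17:34092276-34092355 for H2-Oa, and on the minus strand at chr17:34287852-34287931 for H2-Aa. ATTGG began 59 bases before the table's start in H2-Eb1, 57 in H2-Ob, 61 in H2-DMb1, 90 in H2-DMb2, 48 in H2-Aa and 43 in H2-Oa. In H2-Eb1, H2-Ob and H2-DMb1 the X box pattern and ATTGG were 22, 20 and 23 bases apart. Such a match describes the letters and is not a measured binding site.

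Between 10342 genes (ZnF4, fraction B) and 10947 genes (ZnF1, fraction C) reached 1 RPKM per library. The ZnF1 fraction C library stood apart. Its granulocyte markers summed to 41771.8 RPKM, against 994.8 to 3701.8 RPKM in the other 5 libraries. Its macrophage and monocyte markers summed to 1948.3 RPKM, against 41.4 to 184.8 RPKM in the others, and its proB markers had the lowest sum, 2277.8 RPKM, against 3035.1 to 5509.1 RPKM. Values that rest on this library are therefore given with and without it. Ikzf1 had 425.1 and 431.6 RPKM in ZnF4 cells, 154.1 and 181.5 RPKM in ZnF1 cells and 169.4 and 150.3 RPKM in wt cells (fractions C and B), a level that does not check the loss of a single finger. The X-inactivation RNA Xist was listed at 0 in the 4 mutant libraries and had 91.9 and 81.3 RPKM in the wt libraries, so genotype and sex cannot be told apart in a comparison with wt.

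**Figure D1:**
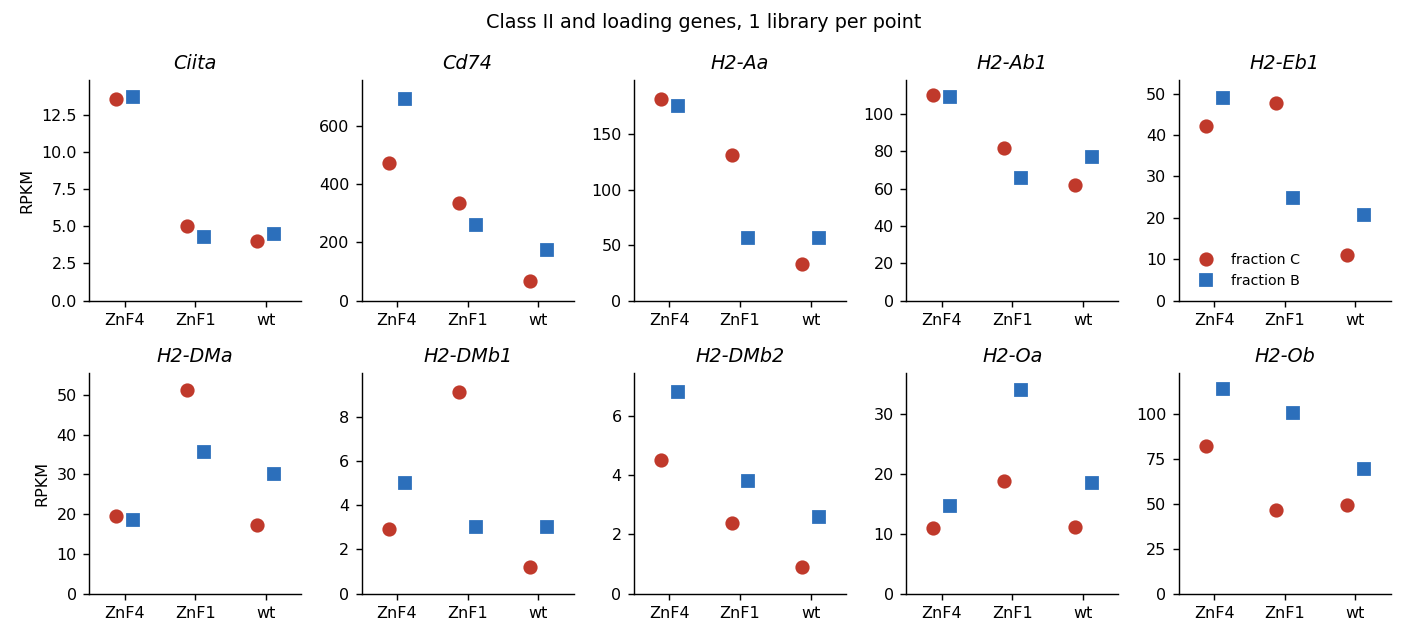
RPKM of the 10 class II genes in each library (y axes start at 0 and differ between panels), with genotypes along the x axis, circles for fraction C and squares for fraction B. Ciita stands at 13.6 and 13.7 RPKM in ZnF4 cells and at 4.0 to 5.0 RPKM elsewhere, while H2-DMa and H2-Oa are not higher in ZnF4 cells than in ZnF1 cells.

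In ZnF4 cells the transactivator, the invariant chain and the classical chains stood above wt in both fractions, whereas the alpha chains of DM and DO did not. Ciita had 13.6 RPKM in ZnF4 cells and 4.0 RPKM in wt cells of fraction C, and 13.7 and 4.5 RPKM in fraction B. ZnF1 cells had 5.0 and 4.3 RPKM in fractions C and B. The 2 ZnF4 libraries thus lay above all 4 others, which spanned 4.0 to 5.0 RPKM. The log2 difference of RPKM + 1 between ZnF4 and wt was 1.55 in fraction C and 1.42 in fraction B, where 1 corresponds to 2-fold.

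Cd74 was the most abundant of the 10 genes in every library. It had 473.1 RPKM in ZnF4, 336.8 RPKM in ZnF1 and 66.6 RPKM in wt cells of fraction C, and 692.8, 259.7 and 172.7 RPKM in fraction B. In both fractions ZnF4 was highest and wt lowest, and ZnF4 was 7.01-fold above wt in fraction C and 3.99-fold in fraction B on the scale of RPKM + 1.

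H2-Aa, the alpha chain of the surface molecule, had 182.4 RPKM in ZnF4, 131.1 RPKM in ZnF1 and 33.0 RPKM in wt cells of fraction C. In fraction B it had 175.6 RPKM in ZnF4, 56.8 RPKM in ZnF1 and 56.2 RPKM in wt cells. The ZnF4 libraries were highest in both fractions (log2 difference from wt 2.43 and 1.63), and the ZnF1 library of fraction B stood beside wt. Its partner chain H2-Ab1 differed less, with 110.2 RPKM in ZnF4, 81.5 RPKM in ZnF1 and 61.7 RPKM in wt cells of fraction C. In fraction B it had 108.9 RPKM in ZnF4, 65.9 RPKM in ZnF1 and 76.7 RPKM in wt cells. Both ZnF4 libraries lay above all others, but within 2-fold of wt (log2 difference 0.83 and 0.50). H2-Eb1, the beta chain without a partner in this strain, had 42.1 RPKM in ZnF4, 47.7 RPKM in ZnF1 and 10.9 RPKM in wt cells of fraction C. In fraction B it had 48.9 RPKM in ZnF4, 24.7 RPKM in ZnF1 and 20.7 RPKM in wt cells. ZnF4 was above wt in both fractions (1.86 and 1.20 on the log2 scale), but in fraction C the ZnF1 library was higher still. H2-Ea, named here for the haplotype and not by the rule for named genes, was listed at 0.3 RPKM or less in every library.

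The chains of the peptide editor DM differed in their order of genotypes. Its alpha chain H2-DMa had 19.6 RPKM in ZnF4, 51.2 RPKM in ZnF1 and 17.3 RPKM in wt cells of fraction C, and 18.5, 35.7 and 30 RPKM in fraction B. ZnF4 was close to wt in fraction C (log2 difference 0.17) and lower in fraction B (-0.67), and ZnF1 was the highest in both. The beta chain H2-DMb2 had 4.5 RPKM in ZnF4, 2.4 RPKM in ZnF1 and 0.9 RPKM in wt cells of fraction C, and 6.8, 3.8 and 2.6 RPKM in fraction B. Its order, ZnF4 over ZnF1 over wt, was that of Cd74. H2-DMb1, the other beta chain, had 2.9 RPKM in ZnF4, 9.1 RPKM in ZnF1 and 1.2 RPKM in wt cells of fraction C, and 5.0, 3.0 and 3.0 RPKM in fraction B. GENCODE transcripts of H2-DMb1 and H2-DMb2 (1404 and 1424 bases, against 1290 and 792 listed here) were aligned in place of the listed ones. They are 95.2% identical over 1094 aligned columns, and 26.8% of the 50-base stretches of the H2-DMb2 transcript also occur in that of H2-DMb1. The split of reads between both genes is therefore uncertain.

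The DO chains, which restrain DM, also differed in that order. H2-Oa, the alpha chain, had 10.9 RPKM in ZnF4, 18.9 RPKM in ZnF1 and 11.1 RPKM in wt cells of fraction C, and 14.7, 34.0 and 18.5 RPKM in fraction B. It was highest in ZnF1 cells of both fractions, and the ZnF4 libraries were below wt, by -0.02 in fraction C and -0.31 in fraction B on the log2 scale. H2-Ob, the beta chain, had 82.2 RPKM in ZnF4, 46.3 RPKM in ZnF1 and 49.1 RPKM in wt cells of fraction C, and 113.7, 100.5 and 69.3 RPKM in fraction B. ZnF4 was highest in both fractions, with log2 differences from wt of 0.73 and 0.71. H2-Ob was above H2-Oa in every library, so DO transcripts were mostly those of the beta chain.

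Counted over the 10 genes, ZnF4 was at least 2-fold above wt for 5 in fraction C, against 3.55% of all genes, and for 5 in fraction B, against 3.7% of all genes. They are Ciita, Cd74, H2-Aa, H2-Eb1 and H2-DMb2 in both fractions. None was 2-fold lower in either fraction, against 6.12% of all genes in fraction C and 9.81% in fraction B. The median log2 difference of the 10 genes was 1.18 in fraction C and 0.91 in fraction B, beside -0.05 and -0.09 over all genes. With libraries scaled to 7 B-lineage genes, 3 genes in place of 5 passed 2-fold in fraction B.

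A model with genotype and fraction as terms, fitted by limma over all 10943 genes and all 6 libraries, called 0 of the 10 genes different between ZnF4 and wt at an adjusted p under 0.05. It called 0.00914% of all genes higher and 0.0183% lower, and 7 of the 10 genes had an unadjusted p under 0.05, against 17.6% of all genes. With scaling to B-lineage genes 2 of the 10 had one, against 14.6% of all genes. Ciita had a log2 difference of 1.48 ± 0.20 (SE, n = 2 libraries per genotype, limma adjusted p = 0.101), and Cd74 one of 2.40 ± 0.46 (limma adjusted p = 0.14). H2-Aa had 2.03 ± 0.49 (limma adjusted p = 0.171) and H2-DMb2 had 1.32 ± 0.24 (limma adjusted p = 0.132). The remaining 6 genes had adjusted p values of 0.216 to 0.724. Without the ZnF1 fraction C library the same model called 8 of the 10 genes higher in ZnF4 than in wt, among 12.2% of all genes called higher and 19.3% called lower. The 2 that did not pass were H2-DMa (adjusted p = 0.408) and H2-Oa (adjusted p = 0.333), and the adjusted p of Ciita and of Cd74 was then 0.00605. The differences between ZnF4 and wt stayed as they were, since only the estimate of the spread changed. With a single ZnF1 library left, the model fits that library exactly, so the spread came from the ZnF4 and wt libraries alone. Leaving out the ZnF1 fraction B library in its place also left the differences between ZnF4 and wt as they were. It rests on the same residuals and is not a separate check. The calls were lost when any ZnF4 or wt library was left out.

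**Figure D2:**
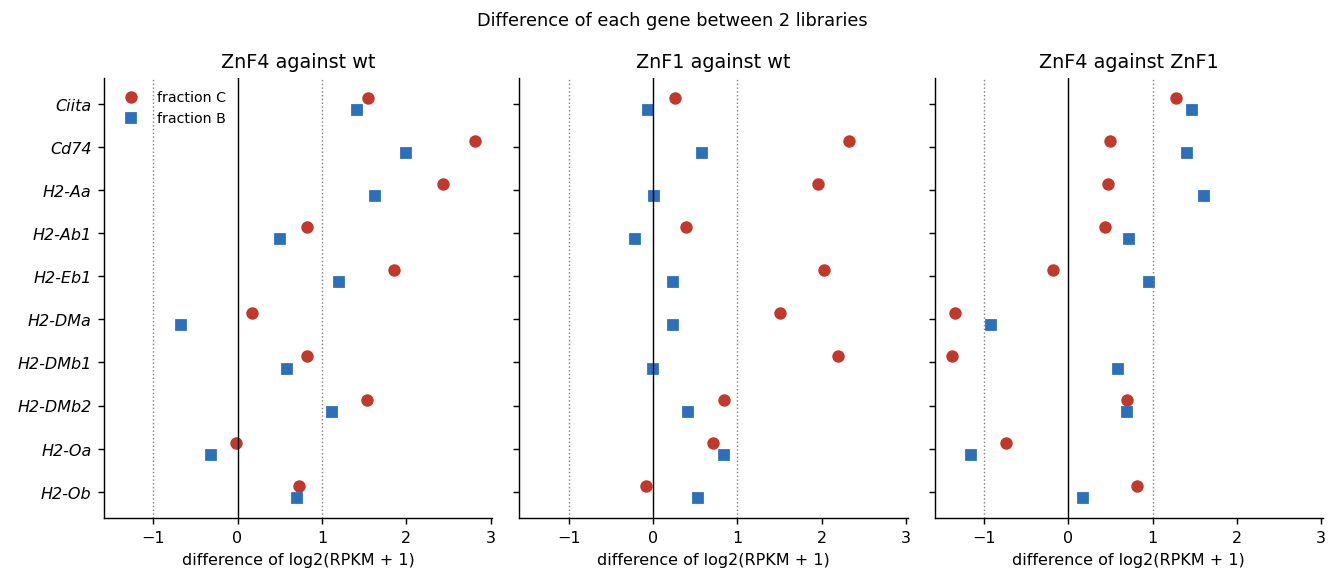
Difference of log2(RPKM + 1) for each of the 10 genes (rows) between a pair of libraries, in panels for ZnF4 against wt, ZnF1 against wt and ZnF4 against ZnF1, with circles for fraction C, squares for fraction B and dotted lines at 2-fold. Against wt, ZnF4 passes 2-fold for 5 genes in both fractions, while ZnF1 passes it for 5 genes in fraction C and for 0 in fraction B.

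In ZnF1 cells of fraction B, class II genes were within 2-fold of wt, as most genes were, and in fraction C several were higher. In fraction C ZnF1 was at least 2-fold above wt for 5 of the 10 genes, against 12.6% of all genes, and 2-fold lower for none, against 7.39%. In fraction B no gene was 2-fold higher or lower, against 2.07% and 2.21% of all genes. Below that threshold 7 genes were higher and 2 lower, led by H2-Oa (log2 difference 0.84), Cd74 (0.59) and H2-Ob (0.53). The 5 genes of fraction C were Cd74 (log2 difference 2.32), H2-DMb1 (2.20), H2-Eb1 (2.03), H2-Aa (1.96) and H2-DMa (1.51). Ciita was not among them, with log2 differences of 0.26 in fraction C and -0.05 in fraction B. Over the 10 genes the median was 1.18 in fraction C and 0.24 in fraction B, beside -0.16 and 0.04 over all genes. With scaling to B-lineage genes 8 genes passed 2-fold in fraction C, but that scaling shifts all genes of a library alike. It subtracted -0.86 from the log2 values of ZnF1 and -0.16 from those of wt in fraction C. The share of all genes passing 2-fold under it was not computed.

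The fraction C values of ZnF1 came from the library with high myeloid markers. Among markers with a mean of 1 RPKM or more over the other 5 libraries, those at least 2-fold above wt were 8 of 8 for macrophages and monocytes, 11 of 11 for granulocytes and 9 of 10 for erythroid cells. Of 6 conventional dendritic markers, 4 were at least 2-fold above wt and 1 was 2-fold below, Dpp4 with 25.0 RPKM in ZnF1 and 78.9 RPKM in wt cells of fraction C. Because of Dpp4, their sum was lower, at 80.8 RPKM in ZnF1 and 107.4 RPKM in wt cells. Among the 4 higher ones, the integrin Itgax had 6.1 RPKM in ZnF1 and 1.8 RPKM in wt cells of fraction C, and 1.6 and 4.9 RPKM in fraction B. Clec10a, a lectin of dendritic cells and macrophages, had 8.9 RPKM in ZnF1 and 1.1 RPKM in wt cells of fraction C, and 2.6 and 3.8 RPKM in fraction B. Such cells also carry class II, and the part of these markers in the ZnF1 values of fraction C was not tested. In bulk samples, more cells of a type and more RNA per cell cannot be told apart.

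The limma model called 0 of the 10 genes different between ZnF1 and wt, among 0.00914% of all genes called higher and 0.0183% lower, and 2 of the 10 genes had an unadjusted p under 0.05, against 9.3% of all genes. These were Cd74, with a log2 difference of 1.45 ± 0.46 (SE, n = 2 libraries per genotype, limma adjusted p = 0.519), and H2-Oa, with 0.78 ± 0.19 (limma adjusted p = 0.44). Without the ZnF1 fraction C library 0 of the 10 were called, among 0.064% of all genes higher and 0.0822% lower. Cd74 then differed by 0.79 and H2-Oa by 0.92 on the log2 scale, with ZnF1 represented by its fraction B library alone. Without the ZnF1 fraction B library the log2 difference was 2.12 for Cd74 and 0.65 for H2-Oa.

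**Figure D3:**
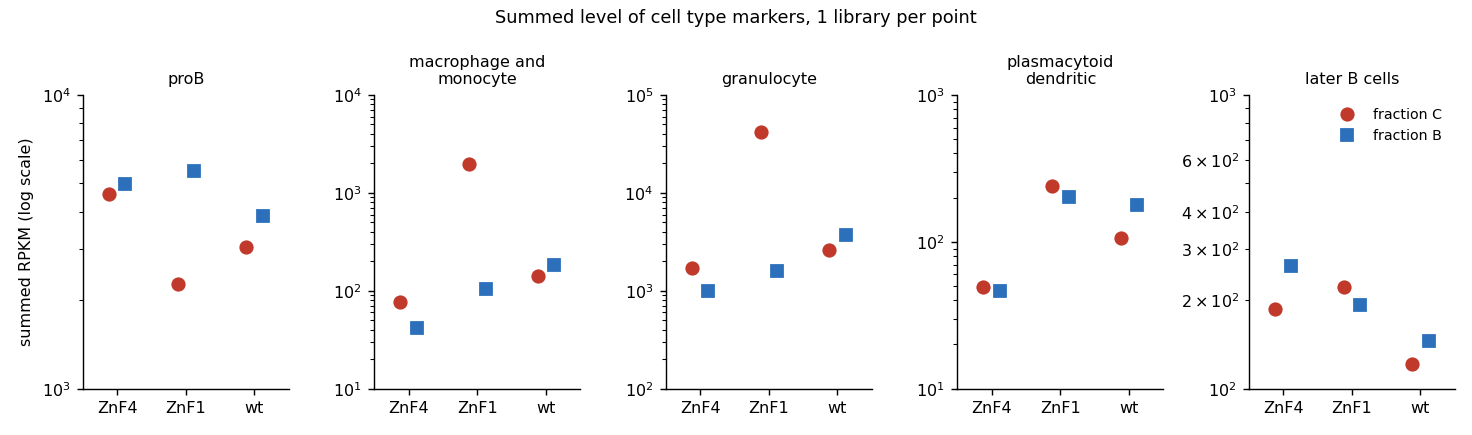
Summed RPKM of marker genes of 5 cell types in each library on log axes, with genotypes along the x axis, circles for fraction C and squares for fraction B. The ZnF1 fraction C library is highest for macrophage and monocyte markers (1948.3 RPKM) and granulocyte markers (41771.8 RPKM) and lowest for proB markers (2277.8 RPKM), while the ZnF4 libraries are lowest for plasmacytoid dendritic markers.

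Most myeloid and dendritic markers of the ZnF4 libraries were below wt, with exceptions. The macrophage and monocyte markers summed to 76.3 RPKM in ZnF4 and 140.7 RPKM in wt cells of fraction C, and to 41.4 and 184.8 RPKM in fraction B. The plasmacytoid dendritic markers summed to 48.9 RPKM in ZnF4 and 105.4 RPKM in wt cells of fraction C, and to 46.5 and 178.3 RPKM in fraction B. Of 12 macrophage and monocyte markers past the filter, 5 were above wt in fraction C and 2 in fraction B, none by 2-fold. The 10 conventional dendritic markers summed to 111.6 RPKM in ZnF4 and 107.4 RPKM in wt cells of fraction C, and to 121.9 and 114.1 RPKM in fraction B. Most of that sum came from Dpp4, a peptidase, and Ccr7, a chemokine receptor, and Dpp4 had 91.0 and 94.3 RPKM in ZnF4 and 78.9 and 73.6 RPKM in wt cells of fractions C and B. Of 6 such markers past the filter, ZnF4 was at least 2-fold below wt for 2 in fraction C and 4 in fraction B, and 2-fold above for none. Itgax was listed at 0 in both ZnF4 libraries, and Clec10a at 0.0 and 0.1 RPKM. Markers of later B cells, by contrast, summed to 186.3 RPKM in ZnF4 and 121.3 RPKM in wt cells of fraction C, and to 262.4 and 145.2 RPKM in fraction B. Of the 7 later B cell genes past the filter, ZnF4 was at least 2-fold above wt for 3 in fraction C and 4 in fraction B, and 2-fold below for 2 in both. Among them Ms4a1, which encodes CD20, had 18.9 RPKM in ZnF4 and 6.5 RPKM in wt cells of fraction C, and 39.5 and 15.1 RPKM in fraction B. The part of these markers in the class II values was not tested.

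Set against each other, the mutants were 2-fold apart for few class II genes. Only the count of genes higher in ZnF4 in fraction B stood clear of the share over all genes. ZnF4 was at least 2-fold above ZnF1 for 1 gene in fraction C (Ciita), against 7.41% of all genes, and for 3 in fraction B (Ciita, Cd74 and H2-Aa), against 4.95%. ZnF4 was at least 2-fold below ZnF1 for 2 genes in fraction C (H2-DMa and H2-DMb1), against 14.1% of all genes, and for 1 in fraction B (H2-Oa), against 10.9%. With scaling to B-lineage genes fraction C had 0 higher and 4 lower, so that Ciita no longer passed 2-fold there. That scaling shifts all genes of a library alike, and the share of all genes under it was not computed. The log2 difference of Ciita was 1.28 in fraction C and 1.47 in fraction B. For H2-DMa it was -1.34 in fraction C and -0.91 in fraction B, and for H2-Oa -0.74 and -1.16.

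The limma model called 0 of the 10 genes between ZnF4 and ZnF1, among 1.14% of all genes called higher and 0.676% lower, and 4 of the 10 genes had an unadjusted p under 0.05, against 22.7% of all genes. Ciita came nearest, with a log2 difference of 1.38 ± 0.20 (SE, n = 2 libraries per genotype, limma adjusted p = 0.0575), followed by H2-Oa with -0.95 ± 0.19 (limma adjusted p = 0.0828). H2-DMa had -1.13 ± 0.34 (limma adjusted p = 0.163). Without the ZnF1 fraction C library 5 genes passed as higher in ZnF4 (Ciita, Cd74, H2-Aa, H2-Ab1 and H2-Eb1) and 1 as lower (H2-Oa), among 8.43% of all genes called higher and 16.1% lower. Without the ZnF1 fraction B library the log2 difference was -0.34 for H2-Eb1 and -1.43 for H2-DMb1, so the genes that passed depended on which ZnF1 library was kept.

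The alpha to beta ratios follow from these values and do not depend on the scale of a library. The ratio of H2-Aa to H2-Ab1, the chains of 1 molecule, was 1.66 in ZnF4, 1.61 in ZnF1 and 0.535 in wt cells of fraction C. In fraction B it was 1.61 in ZnF4, 0.862 in ZnF1 and 0.733 in wt cells. The alpha chain was thus in excess of the beta chain in both ZnF4 libraries and the fraction C library of ZnF1, and below it in the other 3. For DM, the ratio of H2-DMa to the sum of H2-DMb1 and H2-DMb2 was 2.65 in ZnF4, 4.45 in ZnF1 and 8.24 in wt cells of fraction C. In fraction B the DM ratio was 1.57 in ZnF4, 5.25 in ZnF1 and 5.36 in wt cells. It was lowest in ZnF4 in both fractions. The listed transcripts of H2-DMb1 and H2-DMb2 are 1290 and 792 bases long, so the summed RPKM also depends on how shared reads were divided. For DO, H2-Oa stood to H2-Ob at 0.133 in ZnF4, 0.408 in ZnF1 and 0.226 in wt cells of fraction C, and at 0.129, 0.338 and 0.267 in fraction B. Cd74 stood to the sum of the classical chains at 1.41 in ZnF4, 1.29 in ZnF1 and 0.631 in wt cells of fraction C, and at 2.08, 1.76 and 1.12 in fraction B. In both fractions the invariant chain was highest relative to the chains in ZnF4 and lowest in wt. The ratios were not tested.

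**Figure D4:**
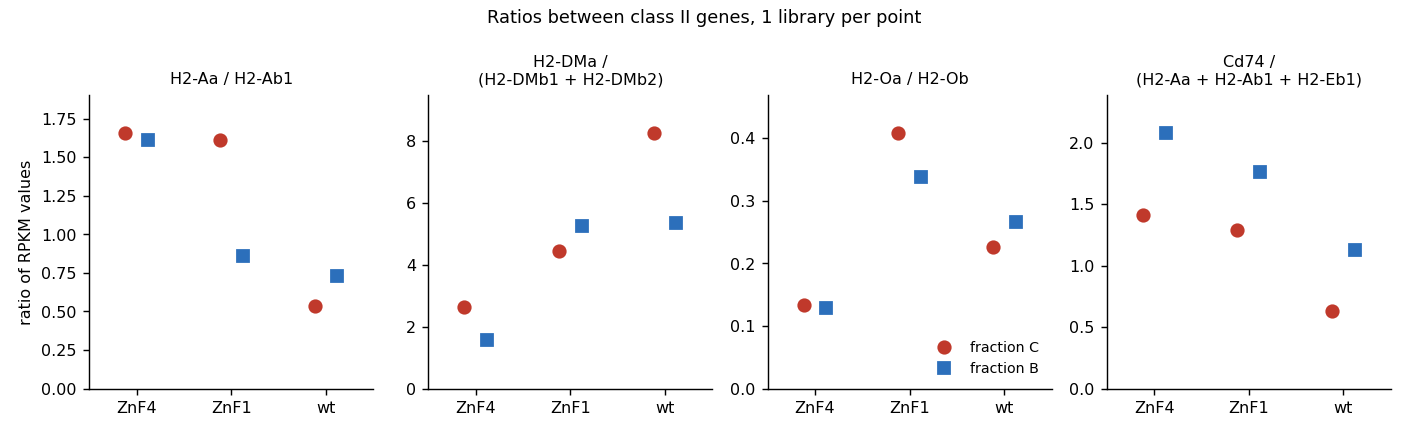
Ratios of RPKM values between chains in each library (y axes start at 0), with genotypes along the x axis, circles for fraction C and squares for fraction B. In ZnF4 cells the ratio of H2-Aa to H2-Ab1 is 1.66 and 1.61, while the DM ratio (2.65 and 1.57) and the DO ratio (0.133 and 0.129) are the lowest of the 3 genotypes in both fractions.

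Between the fractions, the class II genes of wt cells were lower in the later one. In wt cells 10 of 10 genes had less RPKM in fraction C than in fraction B, with a median log2 difference of -0.76 beside 0.06 over all genes. At least 2-fold lower was 1 gene, Cd74 (-1.36), against 1.01% of all genes, and 0 were 2-fold higher, against 0.338%. With a pseudocount of 0.25 the number lower was 3. Markers of other cells were lower too, with 5 of 8 plasmacytoid dendritic, 3 of 6 conventional dendritic and 3 of 7 later B cell genes at least 2-fold lower in fraction C of wt cells, and their part was not tested. In ZnF4 cells no gene was 2-fold apart (background 2.76% higher and 0.585% lower), and the log2 differences of Ciita, H2-Aa and H2-Ab1 lay between -0.01 and 0.05. In ZnF1 cells 2 genes were at least 2-fold higher in fraction C, H2-DMb1 (1.34) and H2-Aa (1.19), against 10.1% of all genes, and H2-Ob was 2-fold lower (-1.10), against 4.16%. Those ZnF1 values rest on the library with high myeloid markers. With scaling to B-lineage genes 7 genes were 2-fold higher in fraction C, but that scaling shifts all genes of a library alike. It subtracted -0.86 from the log2 values of ZnF1 fraction C and 0.40 from those of ZnF1 fraction B. The share of all genes passing 2-fold under it was not computed, so the 7 cannot be set against one. The limma model called 0 of the 10 genes and 0 of all 10943 between fractions. At an unadjusted p under 0.05 it had 3 of the 10 genes and 511 of all genes (4.67%). Both numbers include the ZnF1 fraction C library and were higher without it, while the calls at the adjusted threshold stayed at 0.

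Ciita and its targets were compared library by library. In the 2 ZnF4 libraries Ciita, Cd74, H2-Aa, H2-Ab1 and H2-DMb2 all exceeded their levels in the other 4. H2-Eb1 and H2-Ob broke this order through 1 ZnF1 library each (47.7 RPKM in fraction C and 100.5 RPKM in fraction B), and H2-DMa, H2-DMb1 and H2-Oa did not follow it. H2-Aa stood to Ciita at 13.4 in ZnF4, 26.2 in ZnF1 and 8.25 in wt cells of fraction C, and at 12.8, 13.2 and 12.5 in fraction B. In fraction B, then, the 3 genotypes had nearly the same ratio of H2-Aa to Ciita although ZnF4 had more of both. H2-Ab1 and Cd74 did not keep such a ratio. On the scale of RPKM + 1, ZnF4 of fraction B was 2.67-fold above wt for Ciita and 3.09-fold for H2-Aa. That scale lowers the fold of low genes such as Ciita, so it differs from that of the ratios. On it ZnF4 of fraction B was 1.41-fold above wt for H2-Ab1, 2.30-fold for H2-Eb1 and 3.99-fold for Cd74. In fraction C the ZnF1 library had the most H2-Aa for its Ciita. Cd74 stood to Ciita at 34.8 in ZnF4, 67.4 in ZnF1 and 16.6 in wt cells of fraction C, and at 50.6, 60.4 and 38.4 in fraction B. Since the ZnF4 libraries form a cluster apart in Ciita, a correlation over the 6 libraries would only restate that gap, and a relation within clusters cannot be tested with so few libraries.

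**Figure D5:**
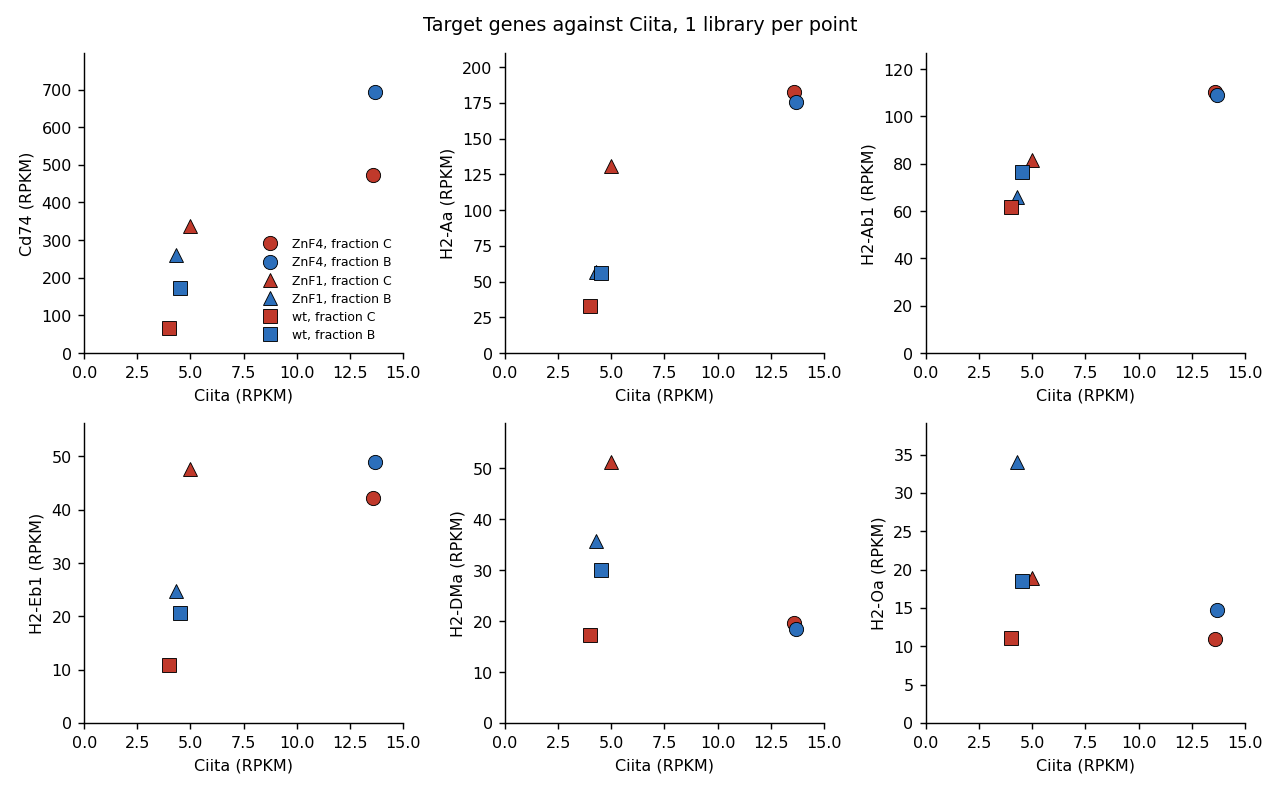
RPKM of 6 target genes (y axes) against RPKM of Ciita (x axes), 1 point per library, with circles for ZnF4, triangles for ZnF1 and squares for wt, red for fraction C and blue for fraction B. The ZnF4 points lie at 13.6 and 13.7 RPKM of Ciita with high Cd74, H2-Aa and H2-Ab1, and their H2-DMa (19.6 and 18.5 RPKM) and H2-Oa (10.9 and 14.7 RPKM) are within the range of the other libraries or below it.

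The other genes of class II loading were mixed in ZnF4 cells. Of 13 accessory genes past the filter (proteases, the thiol reductase, ubiquitin ligases and trafficking factors), ZnF4 was at least 2-fold above wt for 1 in fraction C and 2 in fraction B, and below for 0 and 2. Ifi30, the reductase that unfolds antigens, had 60.9 RPKM in ZnF4 and 28.1 RPKM in wt cells of fraction C, and 108.0 and 46.8 RPKM in fraction B. Unc93b1, which carries Toll-like receptors to endosomes, had 302.6 RPKM in ZnF4 and 151.0 RPKM in wt cells of fraction C, and 492.6 and 224.0 RPKM in fraction B. Both were higher in both fractions, while the protease Ctsl was lower, with 4.5 RPKM in ZnF4 and 5.9 RPKM in wt cells of fraction C, and 4.9 and 14.9 RPKM in fraction B. In ZnF1 cells 8 of the 13 were at least 2-fold above wt in fraction C, against 12.6% of all genes, and 0 in fraction B, against 2.07%. The fraction C values of ZnF1 rest on the library with high myeloid markers, whose part was not tested. March8, a ubiquitin ligase that removes class II from the surface in some cells, had 36.9 RPKM in ZnF1 and 2.2 RPKM in wt cells of fraction C, but 1.8 and 2.8 RPKM in fraction B. The limma model called 0 of the 13 in either mutant against wt, where it called 0.00914% of all genes higher and 0.0183% lower.

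The factors that CIITA works with were within 2-fold of wt in ZnF4 cells. Of 12 genes for the X and Y box factors and coactivators, 0 were 2-fold apart between ZnF4 and wt in either fraction, and the medians were 0.17 in fraction C and 0.27 in fraction B. Rfx5, a subunit of the RFX complex on the X box, had 26.6 RPKM in ZnF4 and 15.2 RPKM in wt cells of fraction C, and 24.4 and 18.3 RPKM in fraction B. Nfya, a subunit of the NF-Y complex on the Y box, had 91.6 RPKM in ZnF4 and 62.2 RPKM in wt cells of fraction C, and 75.2 and 56.4 RPKM in fraction B. Both were above wt but within 2-fold. With all 6 libraries 0 of the 12 were called, against 0.00914% of all genes higher and 0.0183% lower. Of 17 genes known to act on Ciita, ZnF4 was at least 2-fold above wt for 1 in fraction C and 2 in fraction B, and 2-fold below for 1 in both. Spib, an Ets family factor of B cells and plasmacytoid dendritic cells, had 507.1 RPKM in ZnF4 and 179.7 RPKM in wt cells of fraction C, and 784.5 and 297.3 RPKM in fraction B. ZnF1 cells had 130.0 and 191.5 RPKM of Spib, below both. Spib passed the limma model between ZnF4 and ZnF1 (log2 difference 1.99 ± 0.22, SE, n = 2 libraries per genotype, limma adjusted p = 0.0413) and not between ZnF4 and wt (limma adjusted p = 0.114). Myc had 11.3 RPKM in ZnF4 and 91.7 RPKM in wt cells of fraction C, and 5.5 and 48.7 RPKM in fraction B, the lowest of the 17 relative to wt.

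The class I genes were mixed in ZnF4 cells, with a summed level below wt. The 5 heavy chains of the list (H2-K1, H2-D1, H2-Q7, H2-T23 and H2-M3, grouped after their values were seen) were above wt in both fractions, but with scaling to B-lineage genes 3 were below wt in fraction C and 2 in fraction B. Heavy chain genes are alike in sequence, so the split of their reads is uncertain. Of 17 genes for class I chains, peptide supply and loading, ZnF4 was at least 2-fold above wt for 0 in both fractions and below for 1 in fraction C and 3 in fraction B. Their summed level was 2622.5 RPKM in ZnF4, 2970.5 RPKM in ZnF1 and 3065.6 RPKM in wt cells of fraction C. In fraction B it was 2844.2 RPKM in ZnF4, 3274.1 RPKM in ZnF1 and 3290.8 RPKM in wt cells. The genes lowest relative to wt in ZnF4 were chaperones of the endoplasmic reticulum, led by Pdia3 with 62.5 RPKM in ZnF4 and 135.9 RPKM in wt cells of fraction C, and 40.7 and 120.4 RPKM in fraction B. Calr followed, with 123.7 RPKM in ZnF4 and 235.5 RPKM in wt cells of fraction C, and 103.2 and 218.7 RPKM in fraction B. At the other end H2-M3, a nonclassical class I chain, had 35.9 RPKM in ZnF4 and 22.0 RPKM in wt cells of fraction C, and 42.3 and 30.3 RPKM in fraction B. The limma model called 0 of the 17 between ZnF4 and wt, against 0.00914% of all genes higher and 0.0183% lower. Among 10 receptors and ligands of antigen-presenting B cells, ZnF4 was at least 2-fold above wt for 2 in both fractions, and below for 1 in fraction C and 2 in fraction B. The largest difference was that of Cd40, the receptor for T cell help, with 33.1 RPKM in ZnF4, 7.5 RPKM in ZnF1 and 1.8 RPKM in wt cells of fraction C, and 66.1, 10.8 and 7.8 RPKM in fraction B. Cd40 did not pass between ZnF4 and wt with all 6 libraries (log2 difference 3.27 ± 0.32, SE, n = 2 libraries per genotype, limma adjusted p = 0.0896), and had a limma adjusted p of 0.00482 without the ZnF1 fraction C library.

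Genes with the most similar pattern were ranked by Pearson's r over the 6 libraries, as a description. Against the mean profile of the 10 genes, 4812 other genes with at least a 2-fold range were compared, and the closest were Bcl2l1 (r = 0.993), Mir5107 (0.980), Dennd3 (0.976), Arhgef11 (0.976), Rras (0.969), Cytip (0.966), Klf2 (0.966) and 1600020E01Rik (0.965). Mir5107 lies within Cd74, so the reads of both cannot be told apart. Bcl2l1, which encodes the survival protein Bcl-xL, had 73.7 RPKM in ZnF4, 72.5 RPKM in ZnF1 and 40.8 RPKM in wt cells of fraction C, and 87.2, 69.0 and 63.2 RPKM in fraction B. Against Ciita alone, among 4820 genes, the closest were LOC100616095 (r = 0.997), Zdhhc13 (0.994), H19 (0.993), Arhgef40 (0.992) and Vps13b (0.992). As the ZnF4 libraries stand apart in Ciita, this ranking restates that gap and shows no relation to Ciita within a genotype. Zdhhc13, a palmitoyltransferase, had 36.9 RPKM in ZnF4, 19.2 RPKM in ZnF1 and 18.8 RPKM in wt cells of fraction C, and 38.9, 18.3 and 19.2 RPKM in fraction B. The imprinted RNA H19 was at 5.0 and 4.8 RPKM in ZnF4 cells and listed at 0 in the other 4 libraries.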

How the data were processed

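RNA from sorted proB cells was sequenced in 6 libraries, 1 for each of 3 genotypes and 2 fractions, with Illumina TruSeq library preparation according to the protocols in the labels. The values are RPKM computed by the authors for each RefSeq transcript and rounded to 0.1, per the file headers. TopHat, bedtools and build mm9 are named per the submitters' processing notes, and their versions, the use of strand and the handling of shared reads are not stated there. Depth stays unknown, so counting intervals are not given. Of 26532 entries, 1 had no gene name, and 3305 of 22098 symbols had several transcripts, of which the one with the highest mean was used. There were 0 columns of other samples.

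Differences were taken as log2(RPKM + 1), which understates the change of low genes. limma 3.58.1 (R 4.3.3, lmFit and eBayes with trend, two-sided, Benjamini-Hochberg adjustment, threshold 0.05) was fitted to the 10943 genes averaging 1 RPKM or more, with genotype and fraction as additive terms. It leaves 2 residual degrees of freedom, and fewer when a library is left out. The 2 libraries per genotype are 1 of each fraction and not replicates. The spread behind the SE and p-values is what the additive terms leave over. It holds differences between genotypes in the step from fraction B to C, which cannot be told apart from noise. The origin of the libraries from separate animals is not stated. All comparisons with wt share the wt libraries. The 10 genes and all gene lists were chosen with earlier results of these data known. From a list, up to 3 genes with the largest and 3 with the smallest log2 difference over both fractions may be named, with all 10 genes in every comparison. H2-Ea, Spi1 and Sppl2a were matched by older symbols, March1 and March8 by accession, and Ighd and Ly6g were not found. Ciita overlaps Dexi, Cd74 overlaps Mir5107 and H2-DMa overlaps Brd2 in the annotation, so their reads may be shared. Promoters came from RefSeq, searched in Python 3.11.15, and identity between GENCODE transcripts of H2-DMb1 and H2-DMb2 was computed with Biopython 1.88. Alternatives were another pseudocount, no filter, 2 scalings, sums of transcripts, no trend, 4 libraries and leaving out each library. The marker counts with a mean taken over 5 libraries and the scaling of the class I heavy chains were added after seeing the data.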

Additional observations from a re-analysis of the deposited data

Results flagged for a closer look

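For 5 genes the step between fractions ran in opposite directions in 2 genotypes by at least 0.32 on the log2 scale each way. These differences between steps were not tested, as each rests on 1 library per genotype and fraction, and the comparison of steps was added after the data were seen. All of them involve the ZnF1 fraction C library, whose granulocyte markers summed to 41771.8 RPKM, and the part of those markers was not tested.

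Between fraction C and fraction B, H2-DMb1 was higher by 1.34 on the log2 scale in ZnF1 cells and lower in wt cells (-0.86), a difference between steps of 2.20. In ZnF4 cells it was also lower in fraction C (-0.62), and the difference from the ZnF1 step was -1.96. H2-Aa was higher in fraction C by 1.19 in ZnF1 cells and lower in wt cells (-0.75), a difference of 1.94. H2-Eb1 was higher by 0.92 in ZnF1 cells and lower in wt cells (-0.87), a difference of 1.79. Cd74 was higher by 0.37 in ZnF1 cells and lower in wt cells (-1.36), a difference of 1.74. Its step in ZnF4 cells was -0.55, which differed from the ZnF1 step by -0.92. H2-DMa was higher by 0.51 in ZnF1 cells and lower in wt cells (-0.76), a difference of 1.27. Smaller opposite steps were those of H2-Ab1, at 0.30 in ZnF1 and -0.31 in wt cells, and of Ciita, at -0.01 in ZnF4, 0.18 in ZnF1 and -0.14 in wt cells.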

How the results depend on the processing

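With all 6 libraries limma called 0 of the 10 genes in each genotype comparison. For ZnF4 against wt the number was 8 (8 higher) with only the 4 libraries of both genotypes, and leaving out 1 library at a time gave 0 to 8, with 8 without either ZnF1 library. The model over all genes went the same way, with 3 genes called from 6 libraries, 3494 from the 4 libraries, 3372 without the ZnF1 fraction B library and 3453 without the ZnF1 fraction C library. For ZnF1 against wt, leaving out 1 library gave 0 to 6 (6 without ZnF1 fraction B), and for ZnF4 against ZnF1 0 to 6 (5 without ZnF1 fraction B and 6 without ZnF1 fraction C). A fit that keeps a single library of a genotype assumes that it varies like the others, and fits that library exactly. For ZnF4 against wt, the fits without either ZnF1 library and with 4 libraries thus share their residuals and are not separate checks. Without the filter on low values limma called 130, 99, 96 and 11 of all genes in the 4 comparisons (ZnF4 against wt, ZnF1 against wt, ZnF4 against ZnF1 and fraction C against B), against 3, 3, 199 and 0 with it. Other settings with all 6 libraries and the filter gave 3 to 7 genes for ZnF4 against wt (5 with a pseudocount of 0.25), 2 to 5 for ZnF1 against wt and 98 (B-lineage scaling) to 352 (median scaling) for ZnF4 against ZnF1. Without the ZnF1 fraction B library 4116 and 4109 genes were called for ZnF1 against wt and ZnF4 against ZnF1, without ZnF1 fraction C 16 and 2689, and without either ZnF4 library in turn 0 in each.

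Scaling to 7 B-lineage genes, which subtracted -0.86 (ZnF1 fraction C) to 0.40 (ZnF1 fraction B) from the log2 values of a library, changed counts at 2-fold. It shifts all genes of a library alike, and the shares of all genes passing 2-fold under it were not computed. ZnF4 against wt in fraction B then had 3 genes in place of 5, ZnF1 against wt in fraction C had 8 in place of 5, and fraction C against B in ZnF1 had 7 (all higher) in place of 3. A pseudocount of 0.25 gave 3 genes in place of 1 for fraction C against B in wt. The cause was not tested. Other counts, 86 in number, stayed within 1.5 times in total, but 2 of them lost a direction. With B-lineage scaling ZnF4 against ZnF1 in fraction C had 0 higher and 4 lower in place of 1 and 2, and with median scaling fraction C against B in ZnF1 had 3 higher and 0 lower in place of 2 and 1. Changes of sign among single genes, all of which had missed the threshold, numbered 12. With scaling to B-lineage genes ZnF4 against ZnF1 gave -0.13 for H2-Eb1 and -0.0253 for H2-Ob. Leaving out 1 library spread ZnF4 against wt over -0.34 to 0.0075 for H2-Oa and -0.78 to 0.28 for H2-DMa, ZnF1 against wt over -0.0893 to 0.54 for H2-Ob, -0.0215 to 0.23 for Ciita and -0.14 to 0.32 for H2-Ab1, and ZnF4 against ZnF1 over -0.34 to 1.12 for H2-Eb1 and -1.43 to 0.65 for H2-DMb1. No paired analysis was possible because the labels carry no replicate numbers and each genotype and fraction has 1 library. With depth unknown, low levels such as those of H2-DMb1 and H2-DMb2 have no counting error attached.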
